A study of Homo sapiens with 4 samples.

Results

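NF-kB subunits and feedback genes were examined as a list of 10 genes: NFKB1, NFKB2, RELB, NFKBIA, TNFAIP2, TNFAIP3, BIRC3, ICAM1, IER3 and SOD2. Chemokine genes were left out of the list. Genes were found by matching symbols in GENCODE release 44 to the Ensembl gene identifiers of the deposited tables, which matched 9 of the 10 among 60658 identifiers. SOD2 had no match by its current identifier, so its expression is not analysed here.

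By its title the study was about high TMEM161A expression in colorectal tumours, and knockdown in cell lines was 1 arm of it. RNA sequencing was done on HT29 and LIM1215, established human colorectal cancer cell lines. In each line, 1 library came from cells given a negative control siRNA and 1 from cells given an siRNA against TMEM161A, whose sample titles carry the tag si2. That makes 4 groups of 1 library each. A group is 1 culture of 1 line, only 1 siRNA against TMEM161A was sequenced, and neither the dose nor the time of treatment is given in the sources used here. No difference below carries an error between replicates, and no test between groups was run. A fit of line and siRNA together over the 4 libraries would leave 1 residual degree of freedom and was not made, since each line was described on its own.

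NF-kB is a family of dimeric transcription factors built from the products of RELA, REL, RELB, NFKB1 and NFKB2. In resting cells the dimers are held in the cytoplasm by inhibitors of the IkB family. Signals from TNF, interleukin-1 and bacterial products lead to destruction of the inhibitors and entry of the dimers into the nucleus, and a slower branch, fed by receptors such as the lymphotoxin beta receptor, processes the NFKB2 precursor and releases dimers with RELB. NF-kB then induces several of its own brakes, among them NFKBIA and TNFAIP3, and genes for cell survival and adhesion. In the intestinal epithelium the pathway is known for its part in inflammation and in colitis-associated cancer.

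Short stretches of promoter are printed because NF-kB genes are textbook targets of NF-kB itself, and the sequences show where the list holds letters that NF-kB dimers are known to bind. RefSeq promoter windows on GRCh38.p14, from 250 bases before to 50 bases after a start site, were found for 8 of the 10 genes, SOD2 included. RELB and IER3 had no entry. Each window was searched on both strands for the NF-kB consensus of 10 bases, GGGRNNYYCC, and for the shorter GGAATTTCC. R stands for A or G, Y for C or T and N for any base. The shorter motif can lie inside a consensus match. The sequences below are written 5′ to 3′ in the direction of the gene, with the matched bases in capitals. The first 6 match the consensus, and the ICAM1 stretch matches GGAATTTCC alone. NFKB1 and NFKB2 match as printed. The NFKBIA, TNFAIP3, BIRC3 and ICAM1 matches lie on the opposite strand, so their capitals are the reverse complement of the motif.
NFKB1 (chr4:102501300-102501329, plus strand): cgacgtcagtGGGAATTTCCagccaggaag
NFKB2 (chr10:102395674-102395703, plus strand): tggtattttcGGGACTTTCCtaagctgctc
NFKBIA (chr14:35404811-35404840, minus strand): tgactggcttGGAAATTCCCcgagcctgac
TNFAIP3, farther match (chr6:137867182-137867211, plus strand): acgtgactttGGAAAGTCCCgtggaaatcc
TNFAIP3, nearer match (chr6:137867194-137867223, plus strand): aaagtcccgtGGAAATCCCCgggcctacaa
BIRC3 (chr11:102317275-102317304, plus strand): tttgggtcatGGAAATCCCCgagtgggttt
ICAM1 (chr19:10270924-10270952, plus strand): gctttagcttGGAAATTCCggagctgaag

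The consensus occurred in at least 1 window of NFKB1, NFKB2, NFKBIA, TNFAIP3 and BIRC3, so in 5 of the 8 genes with a window. Over all genes with a window, 13.3% had it, and 11.3% of all 35116 windows did. Of 68 other NF-kB pathway genes with a window, 21 had it. GGAATTTCC occurred in NFKB1, NFKBIA and ICAM1, so in 3 of the 8 genes with a window. It occurred in 0.560% of all genes with a window, in 0.461% of all windows and in 4 of 68 other pathway genes. In NFKB1 and NFKBIA it lay inside the consensus match. Counted from the start site, the matches printed here began at −49 in NFKB1, −21 in NFKB2, −81 in NFKBIA, −67 and −55 in TNFAIP3, −199 in BIRC3 and −186 in ICAM1. NFKB2 held 5 consensus matches over its 3 windows, some of them overlapping, and BIRC3 held another at −135. The TNFAIP2 window and the 4 SOD2 windows had neither set of letters. A match of letters describes the sequence and is not a measured binding site.

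Levels are given as FPKM, fragments per kilobase of gene of the library's total, which the authors deposited and which allows levels of different genes to be compared. From the steps between low values, an FPKM of 1 was estimated to stand for 18.12 to 21.54 fragments per kilobase, depending on the library. Differences are given as the log2 ratio of FPKM plus 1, which understates changes of low genes, and as FPKM in percent of the reference library. The 95% intervals behind percentages are exact Clopper-Pearson intervals from estimated fragments and cover counting error only. A gene was called different at a log2 ratio of at least 1, that is 2-fold, in either direction. The background was the share of genes called among 14803 genes with a mean FPKM of at least 1 over the 4 libraries. All 9 matched genes were among them, but ICAM1 passed this filter through the LIM1215 libraries alone.

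Facts of the whole libraries were checked first. TMEM161A stood at 42.6 FPKM in control and 4.64 in siRNA cells of HT29, or 10.9% of control (interval 9.38% to 12.6%), and of 39.1 and 7.61 in LIM1215, or 19.4% (17.2% to 21.98%). Of 8 markers of colon epithelium, 8 were at an FPKM of at least 1 in both LIM1215 libraries and 5 in both HT29 libraries. VIL1, KRT20 and LGALS4 stayed under 1 in HT29 and lay between 67.8 and 398 in LIM1215. The 5 leukocyte markers summed to 0.152 to 1.52 FPKM, with PTPRC and CD3E listed at 0 in all 4 libraries, and the 3 endothelial markers to 0.200 to 0.601. The 4 fibroblast markers summed to 5.04 to 17.7, nearly all of it COL1A1, while COL1A2 and DCN were at or near 0. In these bulk libraries, fewer cells that express a gene and less RNA per cell cannot be told apart.

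**Figure D1:**
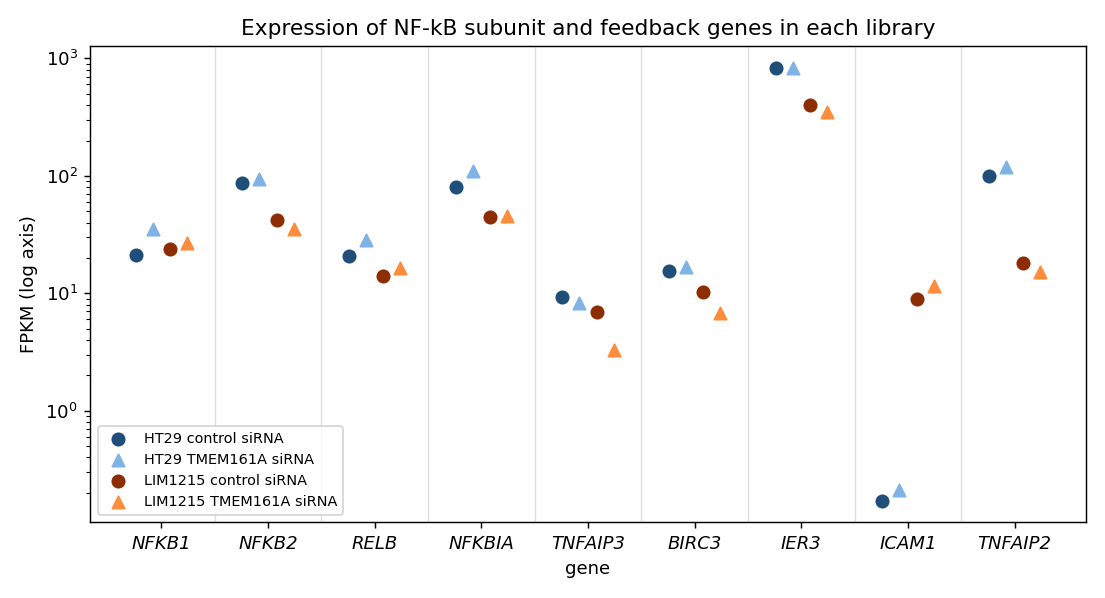
FPKM (log axis) of the 9 matched genes in each of the 4 libraries; circles are control siRNA, triangles TMEM161A siRNA, blue HT29 and orange LIM1215, and each point is 1 library. ICAM1 stands near 0.2 in both HT29 libraries and near 10 in both LIM1215 libraries, while TNFAIP2 is about 100 in HT29 and under 20 in LIM1215.

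The order of levels differed between the lines mainly at TNFAIP2 and ICAM1. IER3 was the most abundant of the 9 in every library, above 98.1% of all genes compared or more. In the HT29 control it was followed by TNFAIP2, NFKB2, NFKBIA, NFKB1, RELB, BIRC3, TNFAIP3 and ICAM1. Within this order the intervals of NFKB2 and NFKBIA overlapped, as did those of NFKB1 and RELB. In the LIM1215 control IER3 was followed by NFKBIA, NFKB2, NFKB1, TNFAIP2, RELB, BIRC3, ICAM1 and TNFAIP3, with overlap between NFKBIA and NFKB2 and between BIRC3 and ICAM1. TNFAIP2 thus stood at rank 2 in HT29 and at rank 5 in LIM1215. With the TMEM161A siRNA, NFKBIA passed NFKB2 in HT29, and in LIM1215 ICAM1 passed BIRC3 and RELB stood next to TNFAIP2 with overlapping intervals.

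Control cells of the lines were compared to see how the basal pathway differs between them. Most of the genes were lower in LIM1215 than in HT29: 7 of the 9 had a log2 ratio below 0, with a median of −0.55, against a median of 0.05 over all genes compared. By the 2-fold threshold TNFAIP2, IER3 and NFKB2 were lower in LIM1215 and ICAM1 was higher, 4 of 9 genes, where the background was 19.4% in either direction, 7.42% lower and 12.0% higher. Rescaling FPKM to a common sum shifted the median of all genes by −0.16 and added NFKBIA to the lower genes. At 1.5-fold 5 of 9 were called, NFKBIA being the added one, against a background of 38.0%. ICAM1 had to differ to be compared at all, and without it the median was −0.69.

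Gene positions below are from GENCODE on GRCh38. Among the subunits, NFKB2 (ENSG00000077150, chr10:102394110-102402524), whose precursor is processed in the slower branch, stood at 86.1 FPKM in control and 94.9 in siRNA cells of HT29, and at 41.96 and 35.04 in those of LIM1215. Both HT29 libraries were above both LIM1215 libraries. The same held for the other matched genes except NFKB1 and ICAM1, and its share over all genes was not counted. The LIM1215 control stood at 48.7% of the HT29 control (interval 46.3% to 51.3%), a log2 ratio of −1.02. It was −0.96, just short of the threshold, with a pseudocount of 5.

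RELB (ENSG00000104856, chr19:45001461-45038192), the usual partner of the processed NFKB2 product, had an FPKM of 20.7 and 28.6 in HT29 control and siRNA cells and of 14.1 and 16.5 in LIM1215. It was lower in LIM1215 in the same direction as NFKB2, at 68.0% of the HT29 control (60.95% to 75.8%, log2 ratio −0.53). NFKB1 (ENSG00000109320, chr4:102501330-102617302), which encodes the precursor of the other small subunit, had 21.1 and 35.2 in HT29 and 23.9 and 27.0 in LIM1215. Its controls were close, with LIM1215 at 113% of HT29 (106% to 121%, log2 ratio 0.17), and with values brought to one total per library the ratio was −0.0028.

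**Figure D2:**
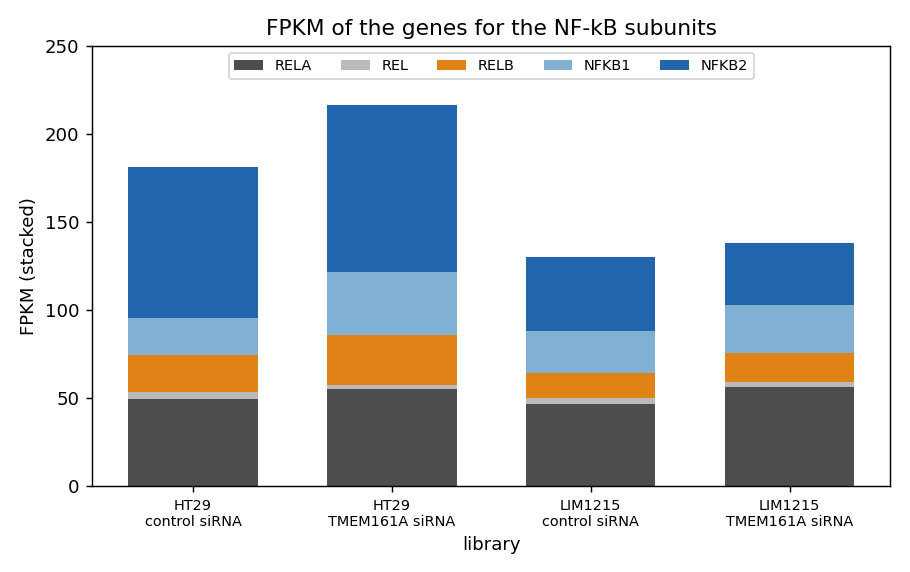
Stacked FPKM of the genes for the 5 NF-kB subunits in each library, 1 bar per library. NFKB2 is the largest block in both HT29 libraries, at 47.4% and 43.9% of the sum, and RELA in both LIM1215 libraries, at 35.9% and 41.0%.

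The makeup of the subunit genes differed accordingly. RELA, the main activating subunit, was nearly level across the controls, with 49.8 in HT29 and 46.8 in LIM1215. REL was low, with 3.82 and 3.60. Summed over the 5 genes, the controls held 181.6 FPKM in HT29 and 130.3 in LIM1215. NFKB2 held 47.4% of that sum in HT29 and 32.2% in LIM1215, so the ratio of NFKB2 to NFKB1 was 4.08 in HT29 and 1.76 in LIM1215 control cells. The ratio of RELB to RELA was 0.415 and 0.301.

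Of the feedback genes, NFKBIA (ENSG00000100906, chr14:35401079-35404749), the main inhibitor that NF-kB induces to end its own signal, had an FPKM of 81.1 and 109.9 in HT29 control and siRNA cells and of 44.9 and 45.5 in LIM1215. Both HT29 libraries were higher, and the LIM1215 control stood at 55.3% of the HT29 control (51.5% to 59.5%, log2 ratio −0.84, and −1.02 after rescaling to a common sum). Of the summed FPKM of NFKBIA, NFKBIB and NFKBIE it made up 64.6% in HT29 and 51.0% in LIM1215 control cells. TNFAIP3 (ENSG00000118503, chr6:137867214-137883314), a ubiquitin-editing enzyme that shuts off signalling from TNF receptors, had 9.30 and 8.33 in HT29 and 6.99 and 3.30 in LIM1215. The controls differed less here, at 75.1% (67.5% to 83.6%, log2 ratio −0.37).

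Among the survival genes, IER3 (ENSG00000137331, chr6:30743199-30744548), an immediate early gene that bears on cell death, was at 830.7 and 835.9 in HT29 and at 399.6 and 347 in LIM1215. The LIM1215 control was at 48.1% of the HT29 control (46.8% to 49.4%, log2 ratio −1.05). BIRC3 (ENSG00000023445, chr11:102317484-102339403), a ubiquitin ligase of the inhibitor of apoptosis family, was at 15.4 and 16.9 in HT29 and at 10.2 and 6.79 in LIM1215. Its LIM1215 control stood at 66.4% (61.9% to 71.3%, log2 ratio −0.55).

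The widest gaps between the lines belonged to TNFAIP2 and ICAM1, in opposite directions. TNFAIP2 (ENSG00000185215, chr14:103121476-103137439), a TNF-induced gene whose product is known for forming membrane protrusions, was at 99.6 and 119 in HT29 and at 18.1 and 15.3 in LIM1215. The LIM1215 control was 5.505-fold lower (18.2% of HT29, interval 17.2% to 19.2%, log2 ratio −2.40), and only 0.446% of all genes compared had a lower ratio. ICAM1 (ENSG00000090339, chr19:10271093-10286615), an adhesion receptor for leukocytes, was at 0.172 and 0.213 in HT29 and at 9.01 and 11.5 in LIM1215. In HT29 these values rested on about 10.1 and 12.7 fragments, in LIM1215 on 451 and 642. The LIM1215 control was 52.5-fold higher by FPKM (interval 28.3 to 109.8), with a log2 ratio of 3.09 (1.44 with a pseudocount of 5 and 5.07 with 0.1), and 1.84% of all genes had a higher ratio. Both HT29 libraries were above both LIM1215 libraries for TNFAIP2 and below both for ICAM1. The libraries of a line differ in siRNA and are not replicates. ICAM1 passed the filter through LIM1215 alone, so its place among all genes compared was shaped by the filter.

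**Figure D3:**
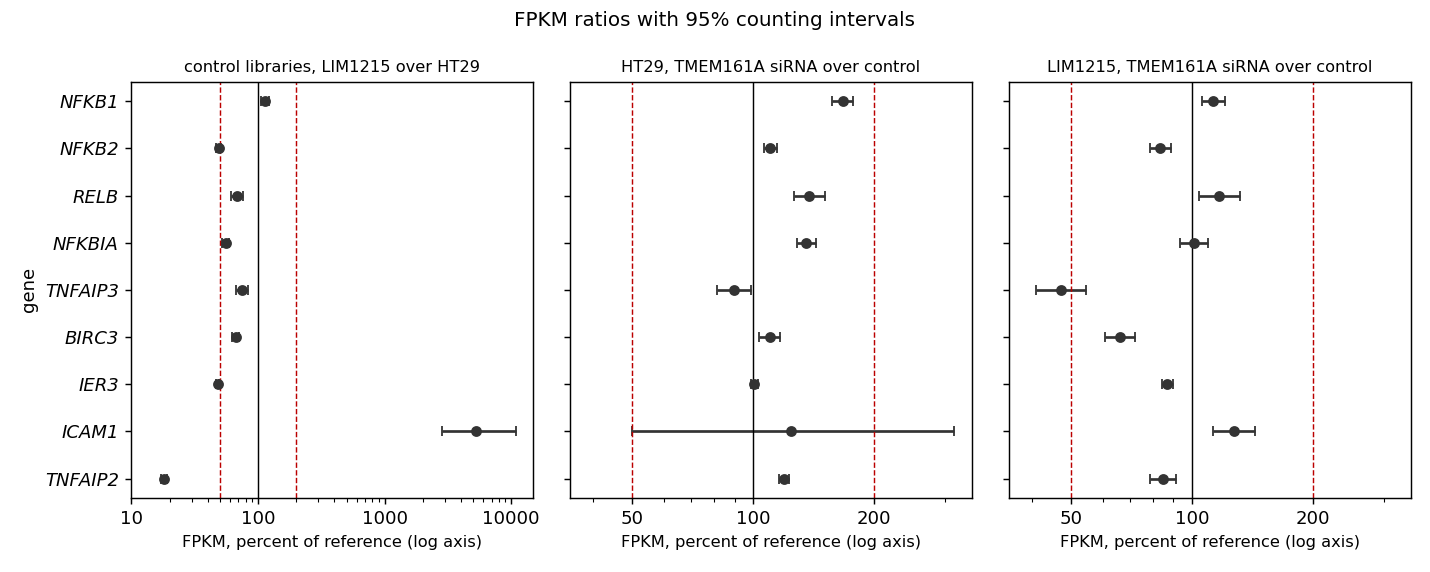
FPKM in percent of the reference (log axis) for the 9 genes in the 3 comparisons, 1 library over 1 library; bars are 95% counting intervals, the solid line marks 100% and the dashed lines 2-fold. In the HT29 panel 8 of 9 points lie above 100%, NFKB1 farthest at 167%, with IER3 at 100.6%; in the LIM1215 panel TNFAIP3 is lowest at 47.3%.

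Knockdown and control were then compared within HT29, to see whether the pathway differed with TMEM161A knocked down. No gene of the list was called at 2-fold, where the background was 3.8% (1.85% higher and 1.95% lower). The differences were small and mostly upward: 8 of 9 log2 ratios were above 0, with a median of 0.14 against 0.04 over all genes compared. After rescaling to a common sum 7 of 9 were above 0, with a median of 0.06 against −0.02 over all genes. The subunits NFKB1 and RELB and the inhibitor NFKBIA had the 3 highest ratios. NFKB1 stood at 167% of control (interval 157% to 177%, log2 ratio 0.71), and 4.999% of all genes had a higher ratio. It was the sole gene of the 9 past 1.5-fold in HT29, where the background was 14.8%.

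RELB in HT29 stood at 138% of control (127% to 150.4%, log2 ratio 0.45) and NFKBIA at 135% (128% to 143%, log2 ratio 0.43). TNFAIP2 was at 119% (116% to 123%), NFKB2 at 110.2% (106% to 115%) and BIRC3 at 109.8% (104% to 116%). IER3 was at 100.6% (98.6% to 102.7%), an interval that includes no change, and its direction turned to −0.07 after rescaling to a common sum. For ICAM1, at 124%, the interval ran from 49.9% to 316%, so a difference was not detectable at this depth. TNFAIP3 alone had a log2 ratio below 0 in HT29, at 89.5% of control (81.2% to 98.6%, log2 ratio −0.14).

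The same comparison was made in LIM1215. Again no gene was called at 2-fold, where the background was 3.46% (1.68% higher and 1.78% lower). The signs were nearly even, with 5 of 9 log2 ratios below 0 and 4 above. The median was −0.20 against 0.02 over all genes. The feedback gene TNFAIP3 and the survival gene BIRC3 were the lowest. TNFAIP3 stood at 47.3% of control (interval 40.9% to 54.5%, log2 ratio −0.89), on an estimated 565 and 299 fragments, and 2.40% of all genes had a lower ratio. In FPKM it was 2.12-fold lower, and it passed the 2-fold threshold with a pseudocount of 0.1 in place of 1 (log2 ratio −1.06). At a pseudocount of 5 it stood at −0.53, short of 1.5-fold. With the pseudocount of 1, TNFAIP3 was the sole gene of the 9 past 1.5-fold in LIM1215, where the background was 12.8%. In FPKM without a pseudocount, BIRC3 was 1.506-fold lower.

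BIRC3 in LIM1215 stood at 66.4% of control (60.9% to 72.4%, log2 ratio −0.53), and 7.57% of all genes had a lower ratio. NFKB2 was at 83.5% (78.5% to 88.8%), TNFAIP2 at 84.7% (78.7% to 91.2%) and IER3 at 86.9% (84.1% to 89.7%). NFKBIA was at 101.3% (93.3% to 109.9%), level within counting error, and its log2 ratio of 0.02 turned to −0.01 when ratios were centred on the median of all genes. NFKB1 was at 113% (106% to 121%), RELB at 117% (104% to 131%) and ICAM1 at 127% (113% to 144%). The 3 genes above control by more than counting error were thus 2 subunits and the adhesion receptor. Variation between cultures was not measured, so intervals that leave out 100% do not separate the siRNA from the culture.

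**Figure D4:**
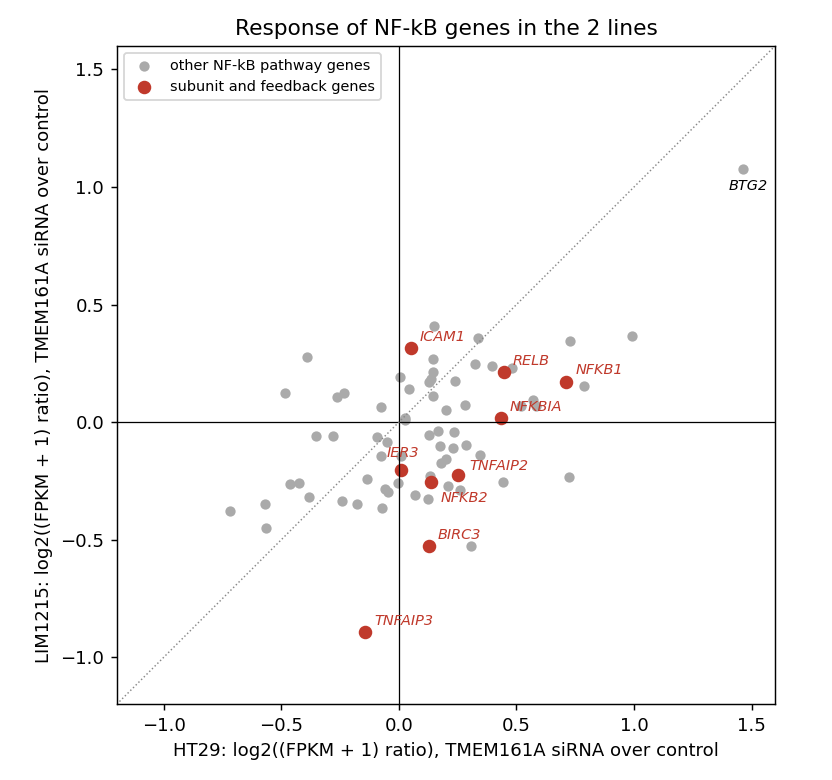
Log2 ratio of FPKM plus 1, TMEM161A siRNA over control, in HT29 (horizontal) and LIM1215 (vertical); red points are the 9 genes, grey points 65 other NF-kB pathway genes, and the dotted line marks equal ratios. ICAM1 is the 1 red point above the dotted line, and BTG2 is the 1 point past 2-fold in both lines.

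The responses of the lines were set side by side. The log2 ratio was lower in LIM1215 than in HT29 for 8 of the 9 genes, by a median of −0.42 for LIM1215 minus HT29. Over all genes compared, 52.3% were lower in LIM1215, with a median of −0.02, and of 65 other pathway genes 43 were, with a median of −0.15. The difference was −0.75 for TNFAIP3, −0.65 for BIRC3, −0.54 for NFKB1, −0.48 for TNFAIP2, −0.42 for NFKBIA, −0.39 for NFKB2, −0.23 for RELB and −0.21 for IER3. It was 0.27 for ICAM1, which rested on few fragments in HT29. The sign of these 9 differences was kept under each pseudocount, centring and scaling tried, though that of TNFAIP3 was −0.43 with a pseudocount of 5. With 1 library per group, this difference between the lines was not tested.

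NFKB1 and RELB were above control in both lines and TNFAIP3 below it in both. NFKB2, BIRC3, TNFAIP2 and IER3 were above control in HT29 and below it in LIM1215, with IER3 in HT29 within counting error. Opposite signs were thus found in 44.4% of the list and in 33.8% of all genes compared. The ratio of NFKB2 to NFKB1 was smaller with the TMEM161A siRNA in both lines, 2.69 in HT29 against 4.08 in control and 1.30 in LIM1215 against 1.76. In HT29 NFKB1 stood at 167% of control and NFKB2 at 110.2%. In LIM1215 NFKB1 was also above control, at 113%, and NFKB2 was below it, at 83.5%. The ratio of BIRC3 to its paralog BIRC2 went opposite ways. It was 0.508 in control and 0.720 in siRNA cells of HT29, against 0.475 and 0.330 in LIM1215. In HT29 BIRC2 stood at 77.5% of control (72.8% to 82.5%), a larger difference than that of BIRC3, and in LIM1215 BIRC2 stood at 95.7% (88.9% to 103.01%).

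The rest of the pathway was described from a list of 82 other genes, of which 65 were compared. Ligands were mostly below the level for comparison: TNF, LTA, LTB, IL1A, IL1B and TNFSF13B had a mean FPKM under 1, and TNFSF12 alone was compared. Of the 65 genes, 9 were called between the controls (6 higher in LIM1215 and 3 lower), or 13.8% against the background of 19.4%. In HT29 siRNA cells 1 was called higher and none lower, and in LIM1215 1 was called higher and none lower, or 1.54% in each, against 3.8% and 3.46% of all genes compared. Both calls were BTG2, an antiproliferative gene that p53 also induces. BTG2 was at 25.3 in control and 71.5 in siRNA cells of HT29 (283% of control, 266% to 301%), and at 50.7 and 108.1 in those of LIM1215 (213%, 203% to 224%). Between the controls the median log2 ratio of the 65 genes was 0.02, with 34 above 0 and 31 below. The medians after the siRNA were 0.13 in HT29 and −0.06 in LIM1215. Over all genes compared the 3 medians were 0.05, 0.04 and 0.02.

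The subunits RELA and REL were not called in any comparison. RELA was at 111% of control in HT29 (105% to 117%) and at 121% in LIM1215 (114% to 128%). REL was at 65.3% (58.8% to 72.6%) and 78.6% (70.5% to 87.6%), so it was below control in both lines at a low level of 2.50 to 3.82 FPKM.

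Of the 5 other genes of the IkB family, 4 had a log2 ratio above 0 in each line and none was called after the siRNA. NFKBIE, an inhibitor that NF-kB also induces, stood at 8.43 in control and 12.98 in siRNA cells of HT29 (154%, 135% to 176%), and at 7.72 and 8.31 in LIM1215 (108%, 92.03% to 126%). NFKBIB was at 110% (99.5% to 121%) and 84.9% (75.8% to 95.01%). NFKBID had log2 ratios of 0.15 and 0.41 and BCL3, a nuclear member of the family, of 0.04 and 0.14, in HT29 and LIM1215. NFKBIZ, a nuclear coactivator of inflammatory genes, stood apart between the lines, with 11.2 and 7.70 in HT29 and 53.4 and 58.3 in LIM1215. Its LIM1215 control was 4.78-fold higher (4.44 to 5.15), opposite to the direction of NFKBIA.

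Some receptors, ligands and kinases also differed between the controls. TNFRSF1B, the second TNF receptor, was at 0.0416 FPKM in the HT29 control, about 3.08 fragments, was listed at 0 in HT29 siRNA cells, and was at 12.5 and 10.1 in LIM1215. CD40, a receptor that feeds the slower branch, was 3.13-fold lower in the LIM1215 control (10.05 against 3.21 FPKM), and TNFSF12 was 4.09-fold lower (12.3 against 2.999). TRAF5, an adaptor of TNF receptors, was 3.25-fold higher in the LIM1215 control (2.84 to 3.73), and MAP3K8, a kinase held by the NFKB1 precursor, 3.76-fold higher (3.27 to 4.33). None of these was called after the TMEM161A siRNA in either line.

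Other targets were mixed between the lines. PTGS2, the inducible prostaglandin synthase, was at 0.281 in HT29 and 5.24 in LIM1215 control cells. CEBPD, a transcription factor of the acute phase, was at 5.39 and 13.02, and SDC4, a surface proteoglycan, was lower in LIM1215, at 74.7 and 31.8. Of the genes called between the controls, TNFAIP2, IER3, NFKB2, CD40, TNFSF12 and SDC4 were higher in HT29. ICAM1, TNFRSF1B, NFKBIZ, TRAF5, MAP3K8, PTGS2 and CEBPD were higher in LIM1215. Genes named for being called must fall on either side, so this split does not show that they vary together, which was not tested. TNFRSF1B and PTGS2, like ICAM1, passed the filter on low values through the LIM1215 libraries alone and so had to be higher there.

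At 1.5-fold, 5 of the 65 genes were higher and 1 lower in HT29 siRNA cells, and 1 was higher and none lower in LIM1215. Over all genes compared, 14.8% were called at 1.5-fold in HT29 and 12.8% in LIM1215, larger shares than in the list. The genes named next were chosen after their values were seen. Besides BTG2, the higher genes in HT29 were IKBKG (log2 ratio 0.99), the regulatory subunit of the kinase that marks the inhibitors for destruction, CFLAR (0.79), a brake on caspase activation, JUNB (0.73) and LCN2 (0.72). IL1RAP, the accessory chain of the interleukin-1 receptor, was the lower one, at −0.72. In LIM1215 the same 5 genes, in this order, had log2 ratios of 0.36, 0.15, 0.35, −0.24 and −0.38. IKBKG shares sequence with a near-identical pseudogene copy, so its values are uncertain.

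Some genes overlap others on the opposite strand: TNFAIP3, IER3, ICAM1 and TNFAIP2 overlap noncoding genes in GENCODE. The libraries were made with a stranded kit, but whether counting used the strand is not given in the sources used here. The overlapping genes that matched had an FPKM of at most 2.59, and the highest, IER3-AS1, overlaps IER3, whose own level was at least 347. The protein-coding genes whose 3 log2 ratios lay nearest to the medians of the list, out of 12286 ranked, were NLN, TRIM59, EEF2K, APPBP2 and FBXO10, at Euclidean distances of 0.0336 to 0.0755. NLN, the nearest, had log2 ratios of −0.57 between the controls, 0.12 in HT29 and −0.21 in LIM1215.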

How the data were processed

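Each of the 4 libraries came as a table of FPKM per Ensembl gene identifier, deposited by the authors. Per the labels' protocols, total RNA went into stranded libraries of mRNA (TruSeq). The submitters' processing notes name HISAT2 2.1.0, SAMtools 1.20, Cuffdiff, Cufflinks 2.2.1 and GRCh38, without roles. Annotation and strand setting are not given in the sources used here. FPKM is relative to a whole library, so abundant genes that change move all others.

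GENCODE release 44 (GRCh38) gave symbols for 56550 identifiers and left 4108 without. Fragments per library were estimated from genes with 1 transcript of at least 500 bases, choosing depth and length offset so that most values of up to 10 fragments came within 0.03 of whole numbers. This held for 76.9% to 79.0% of values. Fragments per gene then used the canonical transcript, so they are approximate for genes with several. Python 3.11.15, scipy 1.17.1 and pandas 2.3.3 were used, and the steps were tested on simulated data. Ratios used a pseudocount of 1 and genes with a mean FPKM of at least 1.

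Named genes were the 9 matched members, TMEM161A, RELA, REL, the IkB family, other pathway genes past 2-fold in any comparison and the 5 genes nearest in pattern. Outside this rule, pathway genes past 1.5-fold in HT29 were named after their values were seen, BIRC2 as the paralog of BIRC3, and the ligands below the filter as such. Members and lists were chosen with earlier results of these data known. Alternatives were pseudocounts of 0.1 and 5, other filters, centring, 2 scalings, coding genes alone, a 1.5-fold threshold and list means. Leaving out ICAM1 was added after the values were seen.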

Additional observations from a re-analysis of the deposited data

Results flagged for a closer look

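Several named genes had log2 ratios, TMEM161A siRNA over control, above 0 in one line and below 0 in the other, and none of these differences was tested, since each line had 1 library per siRNA. Among the main list, the difference LIM1215 minus HT29 was −0.65 for BIRC3 (0.13 in HT29 and −0.53 in LIM1215), −0.48 for TNFAIP2 (0.25 and −0.23), −0.39 for NFKB2 (0.14 and −0.25) and −0.21 for IER3 (0.01 and −0.20). These were 4 of the 9 genes (44.4%), where 33.8% of all genes compared had opposite signs. The HT29 value of IER3 lay within counting error. Of the 65 other pathway genes 23 (35.4%) had opposite signs, near the 33.8% over all genes compared. Of these 23, 18 were above 0 in HT29 and 5 in LIM1215, against 2622 and 2378 over all genes compared. Only the genes named above are given, so they do not show this split. LCN2 (−0.96), SDC4 (−0.48) and NFKBIB (−0.36) were above control in HT29 and below it in LIM1215. The HT29 value of NFKBIB (99.5% to 121%) and the LIM1215 value of LCN2 (68.8% to 102.9%) lay within counting error. NFKBIZ (0.61), TRAF5 (0.37) and MAP3K8 (0.36) went the other way, with the LIM1215 value of TRAF5 (98.5% to 118.9%) within counting error, and all 3 were also called higher in the LIM1215 than in the HT29 control.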

How the results depend on the processing

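Of 27 log2 ratios of the 9 genes, 24 kept their sign under each of the 5 alternatives that apply to single genes. The exceptions were NFKB1 between the controls (0.17), IER3 in HT29 (0.01) and NFKBIA in LIM1215 (0.02). NFKB1 turned to −0.0028 after rescaling to a common sum, which shifted the median of all genes by −0.16. The count of 9 of 65 pathway genes called between the controls was 5 with a pseudocount of 5 and 26 at 1.5-fold. The shares of all genes called were then 8.78% and 38.0%. The single pathway call in HT29 became 2 with a pseudocount of 0.1 (7.62% of all genes) and 6 at 1.5-fold (14.8%). That in LIM1215 became 2 with a pseudocount of 0.1 (6.65% of all genes) and 2 of 79 without a filter (2.63%). The count of 0 called members of 9 became 1 in HT29 at 1.5-fold (NFKB1), against 14.8% of all genes. In LIM1215 it became 1 (TNFAIP3) at 1.5-fold, against 12.8%, and with a pseudocount of 0.1, against 6.65%. The median of the list between the controls, −0.55, was −0.43 with a pseudocount of 5, −0.71 after rescaling to a common sum, −0.71 with upper quartile scaling, −0.39 as a mean and −0.69 without ICAM1. The HT29 median of 0.14 was 0.22 as a mean, 0.07 under upper quartile scaling and 0.06 when rescaled to one total. Over all genes, 1773 were higher and 1099 lower in the LIM1215 control, against 1478 and 1465 after rescaling to a common sum and 1482 and 1459 with upper quartile scaling. The share called after the siRNA was 1.22% in HT29 and 1.05% in LIM1215 with a pseudocount of 5, and 7.62% and 6.65% with 0.1. Pairing by line, with line and siRNA as terms over the 4 libraries, would leave 1 residual degree of freedom and was not run. Depth limits ICAM1 and TNFRSF1B in HT29.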
